A study of Mus musculus with 8 samples.

Results

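DENR (density-regulated protein) works with MCTS1 to let ribosomes start translation again on an mRNA after they have translated a short upstream reading frame. Of the 20432 genes listed in both deposited tables, 9 are described here, which had been selected on a difference between DENR KO and control MC38 cells without IFNγ. Pmepa1, L1cam, Ngfr, Igfbp7 and 2810021J22Rik were chosen as higher in DENR KO cells, and Il1rl1, Prl2c2, Prl2c3 and Plk4 as lower. Because the untreated samples chose the genes, their untreated values are a description with no test. The rule for that choice did not use the samples given IFNγ, but earlier results of these data were known when the genes were chosen. The IFNγ samples are therefore no blind check. They were used to ask whether each gene kept its difference and whether replicate samples gave like values.

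The data are mRNA sequencing of MC38, a mouse line labelled as a colon adenocarcinoma. There were 8 samples in 4 groups of 2: wild-type control cells and DENR KO cells, each either untreated or given 20 ng/ml IFNγ for 4 h. For a co-culture assay the study's methods describe stable MC38 control and DENR KO lines infected with lentivirus for Cas9 and sgRNAs, and elsewhere it describes DENR knockouts of MC38 cells with LentiCRISPR v2-Blast and with either of 2 sgRNAs. Which of these lines were sequenced is not given in the sources used here. The labels number the knockout samples without saying whether they are separate sgRNAs or separate cultures of 1 line. The spread between samples may thus be technical. The p-values rest on that spread, drawn toward the spread of other genes as described below, and on no wider replication. Values are normalized counts, that is the reads on a gene divided by 1 size factor per sample.

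Reads on genes ranged from 17369020 to 18403790 per sample, and size factors from 0.976 to 1.02. Denr (GRCm38, chr5:123907175-123928835) had normalized counts of 1438 and 1401 in control and 946 and 957 in DENR KO cells with IFNγ, and of 1448 and 1297 against 943 and 916 untreated. In bulk RNA, less of a transcript per cell and fewer cells with it cannot be told apart. The targeted transcript stood at 67.0% of control with IFNγ and 67.7% untreated, lower in every knockout sample. This RNA level is no measure of the protein. The study reports a check of DENR knockout in MC38 cells by western blot, and whether it covered the sequenced lines is not given. The summed epithelial markers (Krt8, Krt19, Cdh1 and Vil1 with IFNγ, and Krt18 as well untreated; Epcam and Cdx2 had no row) were 12.7 to 24.6 over all samples, while the mesenchymal markers Vim, Pdgfra, Pdgfrb and Col1a1 summed to 65335 to 78038. RNA of the epithelial markers of the labelled origin was thus close to 0. Most of the mesenchymal sum was Vim, at 62697 to 74880, while Col1a1 was at 315 to 550. Pdgfrb was at 368 and 375 in control and 495 and 509 in DENR KO cells with IFNγ, and its part in any result was not tested. Of the leukocyte markers, Cd68 ranged from 51.3 to 78.6, Ptprc was 0 to 3.06 untreated with no row with IFNγ, and Cd3e had no row.

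The genes have unlike roles. Pmepa1 is a TGFβ target gene whose membrane protein binds SMADs and restrains TGFβ signalling, Ngfr is the p75 receptor for neurotrophins, L1cam is a cell adhesion molecule of neurons that many tumors also make, and Igfbp7 is a secreted protein related to the insulin-like growth factor binding proteins. Il1rl1 encodes ST2, the IL-33 receptor, and Prl2c2 and Prl2c3 encode proliferins, secreted relatives of prolactin. Plk4 is the kinase that starts centriole duplication, and the authors' table places 2810021J22Rik among the KRAB zinc finger factors.

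Sequences are given for features that bear on how the values can be read. Translation after an upstream frame depends on DENR most where that frame is only a start codon followed at once by a stop codon. The 5′ UTRs of annotated transcripts (GENCODE, GRCm38) were searched on the transcript strand for ATGTAA, for the same with the second stop codon (ATGTAG) and for the same with the remaining stop codon (ATGTGA). Among the 9 genes, 1 held such a pair, a share of 11.1%, against 1077 of 11306 genes that passed the filter on low values in both tables, or 9.53%. It was 2810021J22Rik, in transcript ENSMUST00000073924.9, at chr11:58868873-58868878 on the plus strand. The pair starts at base 153 of a 271-base UTR and ends 113 bases before the start codon. It stands in capitals here, with the bases around it.

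2810021J22Rik: gactcagcaactATGTAGagatattggaat

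Other genes held upstream ATGs outside such pairs, and the frames from these ATGs were not followed. The annotated 5′ UTR of Pmepa1 is 349 bases long, 84.0% G or C, and holds 2 ATGs, and both UTRs of Plk4 hold 2. The 4 UTRs of Il1rl1 hold between 0 and 6. A match is a description of the letters and was not tied to any RNA level.

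Prl2c2 and Prl2c3 are near copies of each other on chromosome 13, so their reads are hard to keep apart. Over 842 aligned transcript bases, 838 were identical (99.5%), and 4 differed. Only the longest coding transcript of each gene was compared, of 842 bases for Prl2c2 and 857 for Prl2c3. The gene lengths as tabulated are 1090 and 1360 bases, and bases outside those transcripts were not compared. The first differing base lies in the 5′ UTR and the other 3 in coding sequence, in exons 1, 2 and 4 of 5. The 4 places are shown on the transcript strand with the differing base in capitals, at chr13 positions 13005376, 13005313, 13002141 and 12997464 for Prl2c2 and 12800062, 12799999, 12796838 and 12792171 for Prl2c3 (GRCm38, minus strand).

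Prl2c2 place 1: ctccagtGaagcatcttcccggaatccaca

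Prl2c3 place 1: ctccagtAaagcatcttcccggaatccaca

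Prl2c2 place 2: gatgctcccttcttTgattcaaccatgctc

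Prl2c3 place 2: gatgctcccttcttCgattcaaccatgctc

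Prl2c2 place 3: ttcagaactgttcaCtgaatttgaaaaaca

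Prl2c3 place 3: ttcagaactgttcaAtgaatttgaaaaaca

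Prl2c2 place 4: ggctcacacactatTcagctcttctgaaat

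Prl2c3 place 4: ggctcacacactatGcagctcttctgaaat

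Of 693 windows of 150 bases along the Prl2c2 transcript, 353 (50.9%) also occurred in Prl2c3, and 0 occurred in the relatives Prl2c1 or Prl2c5. The length of 150 bases is that of 1 read, and a read pair can carry more differences than a window. How reads matching both genes were counted is not stated, so the split between the pair is uncertain.

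Without IFNγ, all 9 genes passed the filter (a mean of at least 10) and their groups did not overlap, which the choice of genes favoured. A gene was called with an adjusted p-value under 0.05 (limma, Benjamini-Hochberg over all genes tested) and a log2 fold change beyond 0.5. By that rule 5 of the 9 were called higher and 3 lower, where 0.129% of the 13998 genes tested were called higher and 0.0857% lower. Nothing is read from this count, since the same contrast chose the genes.

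With IFNγ, 7 of the 9 were called in their untreated direction, 4 higher and 3 lower, against 0.517% of 13928 genes called higher and 1.03% called lower. Those called were Pmepa1, L1cam, Ngfr, 2810021J22Rik, Il1rl1, Prl2c2 and Prl2c3. Igfbp7 passed the adjusted p-value but not the fold limit, and Plk4 passed neither. By the adjusted p-value alone 8 of the 9 passed, against 1.8% of genes higher and 2.25% lower. Control and DENR KO samples did not overlap for 8 genes in their untreated direction, 5 higher and 3 lower. That is a looser measure, since 21.1% of all genes were higher and 20.8% lower without overlap.

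**Figure D1:**
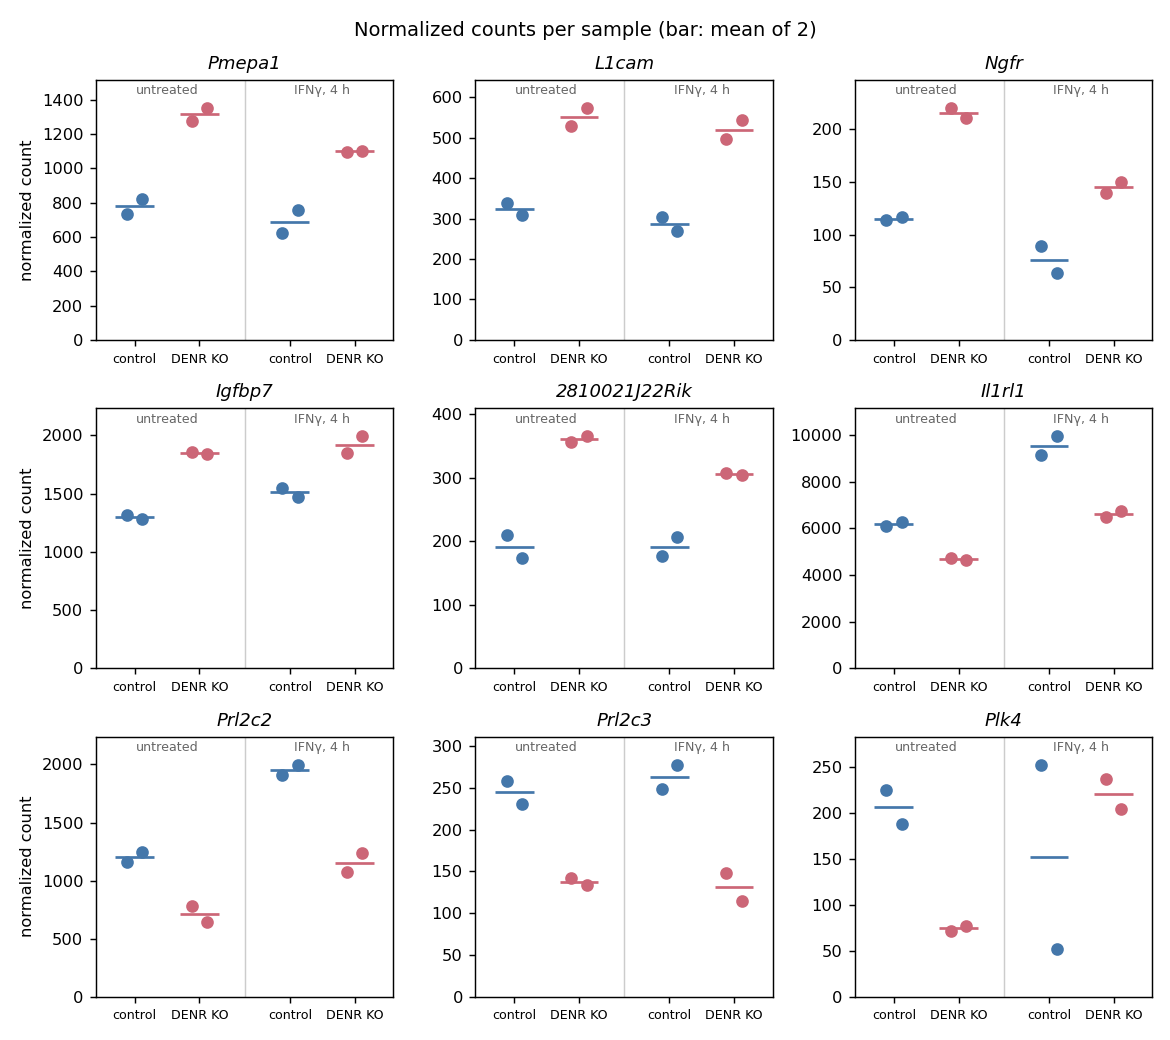
Normalized counts (linear axes from 0) of the 9 genes in each sample, with control in blue and DENR KO in red, untreated on the left of each panel and with IFNγ on the right. Points are single samples and bars the means of 2, and with IFNγ only Plk4 has control and DENR KO samples that overlap.

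Pmepa1 (ENSMUSG00000038400, chr2:173224458-173276533, minus strand in GRCm38, as for all positions) was at 731 and 823 normalized counts in untreated control cells and at 1276 and 1353 in untreated DENR KO cells. With IFNγ it was at 621 and 758 in control and at 1097 and 1098 in DENR KO cells. Both knockout samples were above both controls in each treatment, and the IFNγ knockout samples nearly coincided. The log2 fold change, on the scale of log2(normalized count + 1) used throughout, was 0.68 ± 0.089 with IFNγ (SE, n = 2 per group, adjusted p = 2.3e-05 by limma), and 0.76 untreated.

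Pmepa1 belongs to a pathway for which 30 other genes were listed, covering TGFβ ligands, latency proteins, receptors, SMADs and early targets. All 30 were tested in both tables and 0 were called, by limma, edgeR or DESeq2, while 19 with IFNγ and 13 untreated had an unadjusted p under 0.05. The share of all genes at that unadjusted limit is not given, so such counts, here and below, are not read as results. By the adjusted p-value alone (limma), 8 were higher and 1 lower with IFNγ, where 1.8% of all genes were higher and 2.25% lower. Untreated, 4 were higher and 0 lower, where 0.429% of all genes were higher and 0.15% lower. In either treatment 23 of the 30 had a positive log2 fold change (76.7%), against 49.9% of all genes with IFNγ and 50.5% untreated, and the list's median was 0.18 with IFNγ and 0.11 untreated against -0.00036 and 0.0019 over all genes. Such a share was not particular to this list. In the smaller lists described below, with IFNγ and untreated in turn, it was 80% and 53.3% for L1 adhesion, 66.7% and 83.3% for neurotrophins, 88.9% and 77.8% for the IGF list, 50% in each for the IL-33 axis, and 41.7% and 25% for centriole duplication.

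The genes of that list with an adjusted p-value under 0.05 changed by less than the fold limit, and they are named here after their values were seen. Smad7, an inhibitory SMAD, had 1566 and 1391 normalized counts in control and 2079 and 2000 in DENR KO cells with IFNγ, a log2 fold change of 0.47 ± 0.070 (adjusted p = 1.3e-04, limma), and 0.40 untreated. The ligand Tgfb1 was higher by 0.33 with IFNγ (adjusted p = 0.0026, limma) and by 0.30 untreated. Smad7, Tgfb1 and the latency proteins Ltbp2 (0.35 with IFNγ and 0.29 untreated) and Ltbp4 (0.26 in each) passed the adjusted p-value in both treatments. Tgfb3 (0.44), the target genes Id1 (0.38) and Id3 (0.29) and Ltbp1 (0.23) passed with IFNγ. The co-receptor Tgfbr3 was the 1 lower gene (-0.31). Bambi, a decoy receptor with few reads, had the most negative value (-1.26) and missed the threshold (adjusted p = 0.21, limma).

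**Figure D2:**
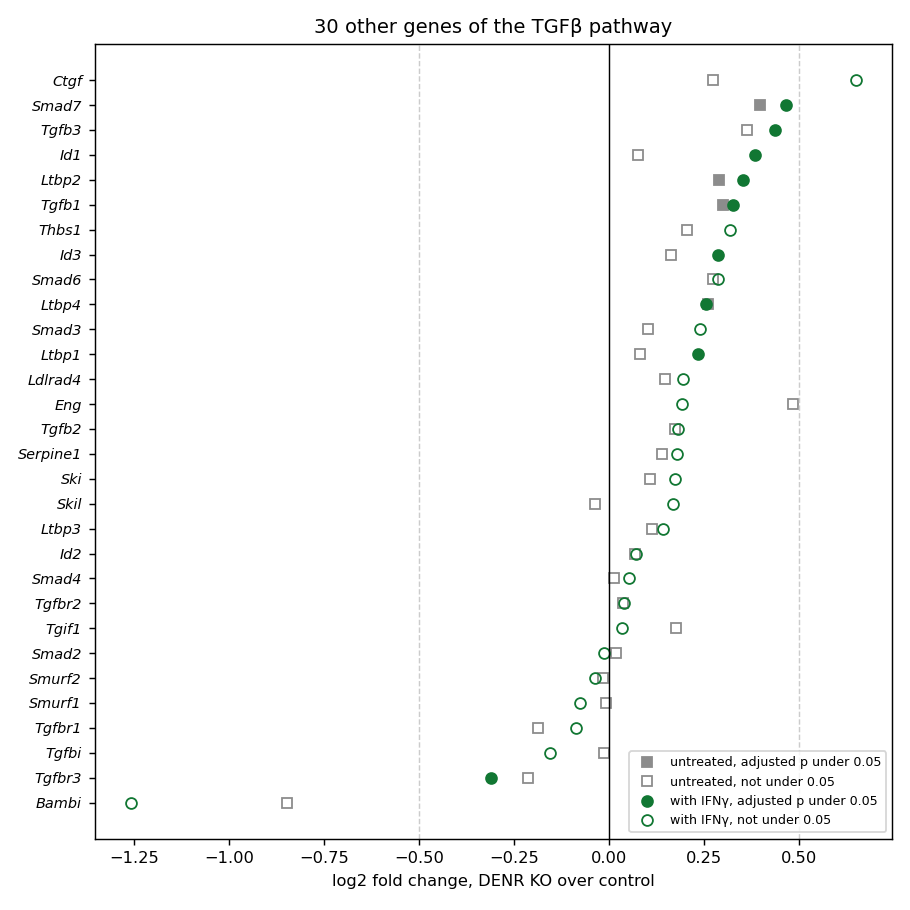
DENR KO over control as log2 fold change (horizontal axis) for 30 other genes of the TGFβ pathway, untreated as grey squares and with IFNγ as green circles, filled where the adjusted p was under 0.05, with dashed lines at 0.5 either way. In each treatment 23 of 30 genes lie right of 0, and no filled symbol lies beyond a dashed line.

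L1cam (ENSMUSG00000031391, chrX:73853778-73896105, minus strand) had 339 and 309 normalized counts in control and 530 and 575 in DENR KO cells untreated, and 304 and 269 against 497 and 544 with IFNγ. The groups did not overlap in either treatment. With IFNγ the log2 fold change was 0.86 ± 0.107 (SE, n = 2 per group, adjusted p = 8.5e-06 by limma) and 0.77 untreated. Of 20 listed genes of L1 family adhesion and its partners 15 were tested, and 0 were called or had an adjusted p-value under 0.05 by limma in either table, and 0 were called by edgeR or DESeq2. An unadjusted p under 0.05 was seen for 2 with IFNγ and 0 untreated. Their median log2 fold change was 0.06 with IFNγ and 0.03 untreated.

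Ngfr (ENSMUSG00000000120, chr11:95568818-95587735, minus strand) was at 114 and 116 normalized counts in control and at 221 and 211 in DENR KO cells untreated. With IFNγ it was at 89.1 and 63.4 in control and at 140 and 150 in DENR KO cells. Knockout samples were above controls in each treatment, and both genotypes were lower with IFNγ. This was a log2 fold change of 0.94 ± 0.192 with IFNγ (SE, n = 2 per group, adjusted p = 0.0038 by limma) and 0.90 untreated. Ngfr has the lowest mean of the called genes, and with DESeq2 on the recovered reads its adjusted p was 0.074.

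Of 17 listed neurotrophin ligands, receptors and p75 adaptors, 12 were tested. Ripk2, a kinase that binds p75 and also serves NOD receptors, was the 1 called gene. Its call was lower with IFNγ, where 1.03% of all genes tested were called lower and 0.517% higher. In cells given IFNγ Ripk2 was lower in DENR KO, at 1335 and 1359 against 1939 and 2001 in control (log2 fold change -0.55, adjusted p = 5.6e-06, limma). Untreated it was at 243 to 315 in all 4 samples, below every sample with IFNγ, with a log2 fold change of 0.16. Untreated, 0 genes of the list were called by limma, edgeR or DESeq2, with 1 at an unadjusted p under 0.05. The ligand Bdnf, named after its values were seen, passed the adjusted p-value with IFNγ (0.44, adjusted p = 0.0074, limma).

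Igfbp7 (ENSMUSG00000036256, chr5:77349240-77408041, minus strand) was at 1318 and 1286 normalized counts in control and at 1861 and 1837 in DENR KO cells untreated. With IFNγ it was at 1548 and 1475 in control and at 1846 and 1994 in DENR KO cells. Knockout samples were above the controls in each treatment. Controls with IFNγ were also above the untreated controls, though the treatments were normalized separately. The log2 fold change was 0.34 ± 0.068 with IFNγ (SE, n = 2 per group, adjusted p = 0.0026 by limma), under the fold limit, and 0.51 untreated. Of 19 listed genes of IGF ligands, receptors and binding proteins 9 were tested and 0 were called by limma, edgeR or DESeq2, with 2 at an unadjusted p under 0.05 with IFNγ and 0 untreated. Irs1, a docking protein of the insulin and IGF1 receptors named after its values were seen, passed the adjusted p-value with IFNγ (0.35, adjusted p = 0.038, limma) and was at -0.03 untreated. Igfbp4, also named afterwards as an abundant binding protein, had a log2 fold change of 0.08 in each treatment.

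2810021J22Rik (ENSMUSG00000020491, chr11:58867216-58883288, plus strand), whose start-stop pair is printed above, was at 209 and 173 normalized counts in control and at 356 and 366 in DENR KO cells untreated. With IFNγ it was at 176 and 206 in control and at 307 and 304 in DENR KO cells. The groups did not overlap in either treatment. On the log2 scale the change was 0.68 ± 0.127 with IFNγ (SE, n = 2 per group, adjusted p = 0.0017 by limma) and 0.92 untreated. Its nearest neighbours, Gm12258 and the zinc finger gene Zfp39, were at -0.11 and -0.02 with IFNγ and at -0.22 and -0.40 untreated, and neither was called in either table.

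Il1rl1 (ENSMUSG00000026069, chr1:40429570-40465415, plus strand) was the most abundant of the lower genes. It had 6100 and 6267 normalized counts in control and 4755 and 4650 in DENR KO cells untreated, and 9155 and 9964 against 6484 and 6758 with IFNγ. Knockout samples were below controls in each treatment, and each genotype was higher with IFNγ. The log2 fold change was -0.53 ± 0.055 with IFNγ (SE, n = 2 per group, adjusted p = 6.7e-07 by limma) and -0.39 untreated. It lies close to the fold limit, at -0.47 without the second control sample and -0.50 without the first knockout sample with IFNγ, and so was not called without either.

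Of 19 listed genes of the IL-33 axis and the IL-1 receptor family, 12 were tested. With IFNγ 2 were called lower and 0 higher, where 1.03% of all genes tested were called lower and 0.517% higher. Untreated, 0 genes of this list were called by limma, edgeR or DESeq2, and 0 had an unadjusted p under 0.05. Irak2, a kinase downstream of these receptors, was at 1045 in both control samples and at 733 and 619 in DENR KO cells with IFNγ (log2 fold change -0.63, adjusted p = 3.8e-05, limma). Untreated it was at 157 to 193, with a log2 fold change of -0.19. Il18rap, a subunit of the IL-18 receptor and the nearest tested gene downstream of Il1rl1, was at 390 and 397 in control and at 215 and 288 in DENR KO cells with IFNγ (-0.66, adjusted p = 0.0024, limma). Untreated it was at 78.6 to 114, with a log2 fold change of 0.16. The adaptor Myd88, named after its values were seen, passed the adjusted p-value only (-0.48, adjusted p = 0.0015, limma), and Il1rap, the co-receptor of ST2, was at -0.14 and did not.

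Prl2c2 (ENSMUSG00000079092, chr13:12996125-13005383, minus strand) had 1164 and 1249 normalized counts in control and 786 and 643 in DENR KO cells untreated, and 1907 and 2000 against 1071 and 1241 with IFNγ. The knockout samples were below the controls in each treatment. DENR KO cells differed by a log2 fold change of -0.76 ± 0.075 with IFNγ (SE, n = 2 per group, adjusted p = 2.9e-07 by limma) and -0.76 untreated.

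Prl2c3 (ENSMUSG00000056457, chr13:12790816-12800079, minus strand), which the table describes by an mRNA of Prl2c4, had 259 and 231 normalized counts in control and 142 and 134 in DENR KO cells untreated. With IFNγ it had 249 and 278 in control and 149 and 114 in DENR KO cells. Again both knockout samples were below both controls. Its log2 fold change was -1.01 ± 0.151 with IFNγ (SE, n = 2 per group, adjusted p = 1.3e-04 by limma) and -0.82 untreated. Per kilobase of gene length as tabulated, the level in IFNγ control cells was 1792 normalized counts for Prl2c2 and 194 for Prl2c3. Given the shared sequence shown above, the pair's fold changes may not be fully separate measurements, and the count of 7 called genes takes them as 2. Of 18 other listed prolactin family genes, none had a mean of at least 10 in either table.

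Plk4 (ENSMUSG00000025758, chr3:40800019-40816883, plus strand) was the 1 gene whose samples overlapped with IFNγ. Untreated it was at 225 and 189 normalized counts in control and at 71.6 and 77.6 in DENR KO cells, or -1.46 on the log2 scale. With IFNγ it was at 253 and 52.4 in control and at 237 and 204 in DENR KO cells. The control samples with IFNγ stood on either side of both knockout samples, and the groups overlapped. The log2 fold change with IFNγ was 0.92 ± 1.08 (SE, n = 2 per group, adjusted p = 0.84 by limma). With DESeq2 and with edgeR on the recovered reads it was 0.53. The limma value was 2.05 without the first control sample and -0.20 without the second. Each of these values rests on 1 control sample, for which the spread is assumed from the knockout samples, so no p-value is given, and 1 library decided both size and direction.

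Over both tables, which were normalized separately, Plk4 was at 52.4 to 77.6 in 3 samples and 189 to 253 in the other 5, and the lower level was in both untreated knockout samples and in 1 control sample with IFNγ. The 2 IFNγ control samples differed 4.76-fold for Plk4 (value + 1), where the median gene differed 1.07-fold. Only 6 of 11349 genes with a mean of at least 50, Plk4 among them, had a ratio that large (0.0529%). Within the untreated groups the Plk4 samples differed 1.19-fold in control and 1.08-fold in DENR KO cells.

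Hspa4l, a heat shock protein gene on the same strand 3916 bases before Plk4, was also uneven between replicates. It had 104 and 283 normalized counts in control and 549 and 302 in DENR KO cells untreated, and 294 and 280 against 403 and 494 with IFNγ. Its untreated control samples differed 2.71-fold, a ratio reached by 33 of 11355 genes. With IFNγ it was called higher (log2 fold change 0.64, adjusted p = 9.6e-04, limma). Abhd18, on the other side of Plk4, had 3.07 and 12.1 in control and 28.5 and 22.5 in DENR KO cells with IFNγ. It passed the filter of 10 only through the DENR KO samples, so its call by limma is not read, and edgeR and DESeq2 did not call it. What links or separates the values of these 3 adjacent genes was not tested.

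**Figure D3:**
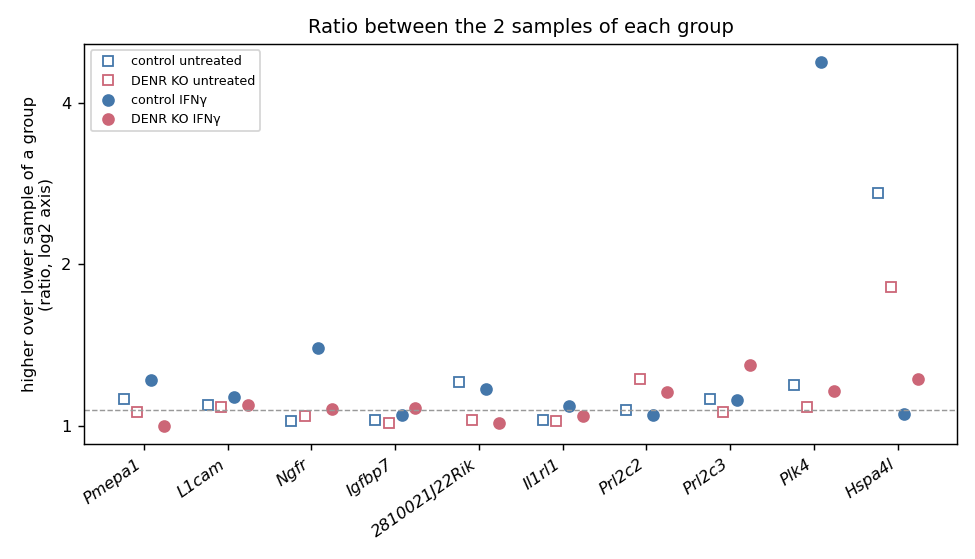
Ratio of the higher to the lower of the 2 samples in each group (value + 1, log2 axis) for the 9 genes and for Hspa4l, with open squares for untreated, filled circles for IFNγ, blue for control and red for DENR KO, and a dashed line at the median ratio of control samples over genes. Plk4 in IFNγ control cells stands at 4.76, and the next highest of the 9 genes is Ngfr in the same group at 1.40.

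The other genes of centriole duplication were listed as 24, all tested. With IFNγ 1 was called lower and 0 higher, where 1.03% of all genes tested were called lower and 0.517% higher. It was Cep85, a centrosomal protein, at 6270 and 6182 in control and at 3538 and 3853 in DENR KO cells (log2 fold change -0.75, adjusted p = 4.7e-09, limma). Untreated it was at 1577 to 1723, with a log2 fold change of 0.08. Cenpj, a centriole elongation factor named after its values were seen, passed the adjusted p-value with IFNγ (-0.34, adjusted p = 0.045, limma). Untreated, 0 were called by limma, edgeR or DESeq2, with 1 at an unadjusted p under 0.05. The Plk4 partners Stil and Cep152 were at -0.05 and -0.02 with IFNγ and at -0.03 and -0.17 untreated. The list's median was -0.02 with IFNγ and -0.06 untreated.

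The difference between the IFNγ and the untreated log2 fold changes is a description, since the untreated value chose the genes. It was smaller than its standard error for Pmepa1 (-0.08 ± 0.125), L1cam (0.09 ± 0.148), Ngfr (0.03 ± 0.245), Prl2c2 (0.0024 ± 0.129) and Prl2c3 (-0.19 ± 0.211). It was between 1 and 2 standard errors for Igfbp7 (-0.16 ± 0.093), 2810021J22Rik (-0.24 ± 0.180) and Il1rl1 (-0.13 ± 0.078), and larger for Plk4 (2.38 ± 1.11). The absolute log2 fold change was larger with IFNγ in 4 of the 8 genes that kept their sign.

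**Figure D4:**
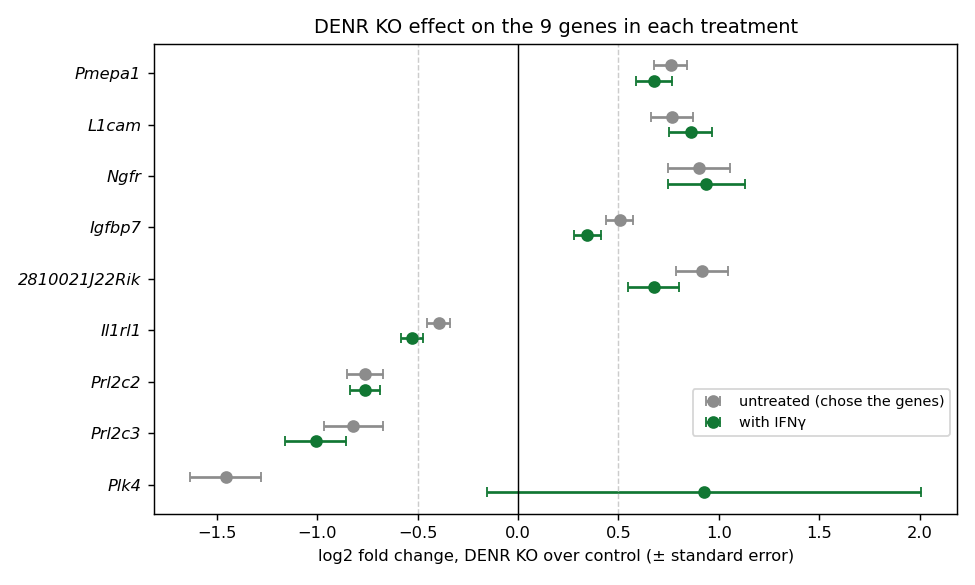
DENR KO over control as log2 fold change with its standard error (horizontal axis) for the 9 genes, untreated in grey and with IFNγ in green, n = 2 samples per group, with dashed lines at 0.5 either way. All genes but Plk4 lie on the same side of 0 in both treatments, and Plk4 goes from -1.46 to 0.92 with the widest error.

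Levels with and without IFNγ come from tables that were normalized separately, so their ratios are given without a test. In control cells the ratio of IFNγ to untreated was 1.62 for Prl2c2 and 1.55 for Il1rl1, and in DENR KO cells 1.62 and 1.41, with no overlap between treatments in either genotype. Prl2c3 did not share this, at 1.08 in control and 0.953 in DENR KO cells with overlapping samples. Ngfr had the lowest ratio of the 9 in both genotypes, 0.663 in control and 0.672 in DENR KO cells. Plk4 had a ratio of 2.96 in DENR KO cells without overlap and of 0.737 in control cells with overlap. For the others the ratio lay between 0.835 and 1.16.

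The nearest tested gene on each side of each of the 9 was examined as well. Of these 16 neighbours outside the 9, 4 were called with IFNγ by limma, 2 higher and 2 lower. Of the 2 higher, the call of Abhd18 is not read, for the reason given above. The other 3 neighbours were also called by edgeR and by DESeq2. Over all genes tested 0.517% were called higher and 1.03% lower. Untreated, 0 were called by limma, edgeR or DESeq2, with 4 at an unadjusted p under 0.05. Besides Il18rap, Hspa4l and Abhd18, the fourth was Zbp1, an interferon-induced sensor of nucleic acids 5535 bases from Pmepa1 on the same strand. It was at 1014 and 1068 in control and at 650 and 646 in DENR KO cells with IFNγ (-0.68, adjusted p = 3.5e-06, limma), opposite in sign to Pmepa1, and was at 9.83 to 14.7 untreated. Polr2b overlaps the end of Igfbp7 on the other strand and was at -0.04 with IFNγ, and whether counting used strand is not stated.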

How the data were processed

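The authors deposited 1 table per treatment, holding a normalized signal for each gene and sample: reads divided by the sample's size factor. The tables also hold the authors' group means, fold changes and p-values, which were not used. The submitters' processing notes name HISAT2 2.0.5, StringTie 1.3.3b, featureCounts 1.5.0-p3 and DESeq2 1.20.0 with mm9, but the deposited gene coordinates are those of GRCm38. Dividing by the worth of 1 read gave whole numbers (within 0.01) for 100% of values, so read counts were recovered.

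Tests were planned for either unit. For this one limma 3.58.1 (R 4.3.3, trend and robust) was run within each table on log2(value + 1), leaving out genes with a mean under 10, with Benjamini-Hochberg adjustment over all genes tested. This scale understates changes of genes with few reads. Standard errors and p-values by limma are moderated, that is, each gene's spread is drawn toward that of genes of like level. A printed standard error can therefore be smaller or larger than the gene's own samples would give. The fits were run on simulated data with larger changes than most reported here and the same spread setting for every gene. That run is no check for smaller changes or for genes as uneven between replicates as Plk4. edgeR 4.0.16 and DESeq2 1.42.0 on recovered reads were alternatives, and called 207 and 148 genes with IFNγ against 215 by limma. Differences between tables came from 1 fit of all 8 samples. The 9 genes, the lists and the tests were chosen with earlier results of these data known. Genes named are the 9, Denr, the called genes of each list (at most 4 per list and table) and the nearest tested gene on each side of each of the 9. Other pathway genes and Pdgfrb were named outside this rule, after their values were seen.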

Additional observations from a re-analysis of the deposited data

How the results depend on the processing

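The number of the 9 genes called with IFNγ in their untreated direction was 7. It was 1 with a log2 fold change beyond 1, where Prl2c3 was left, and lay between 6 and 8 in the other alternatives (6 to 7 with 1 sample left out). Over all genes, 215 were called with IFNγ, 44 beyond a log2 fold change of 1 and 565 with no fold limit. Untreated, 30 were called, 16 with DESeq2, 8 beyond a log2 fold change of 1, 81 with no fold limit, and 28 to 69 with 1 sample left out. The causes of these moves beyond the limit itself were not tested. With the replicate block, which pairs samples by number, 66 genes were called untreated and 7 of the 9 genes with IFNγ. The deviations of same-numbered samples correlated at 0.096 with IFNγ and 0.014 untreated over genes, with 2 pairs in a table, so the numbers were not taken as pairs.

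With 1 sample left out, the difference of the IFNγ from the untreated log2 fold change ranged from -0.38 to -0.11 for 2810021J22Rik, -0.22 to -0.11 for Igfbp7, -0.20 to -0.073 for Il1rl1, -0.21 to 0.28 for Ngfr, -0.23 to 0.061 for Pmepa1, -0.14 to 0.15 for Prl2c2 and -0.38 to 0.00055 for Prl2c3, so the sign for the last 4 of these rests on single samples. For Plk4 it ranged from 1.25 to 3.51, and its log2 fold change with IFNγ from -0.20 to 2.05. L1cam kept its sign, at 0.0035 to 0.18. Among the called genes Ngfr had the lowest mean, with 63.4 to 150 normalized counts per sample with IFNγ. Its control samples with IFNγ also differed 1.40-fold. The part of low counts or of this spread in its result was not tested.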
